A study of Mus musculus with 9 samples.

Results

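Otoconial and tectorial matrix genes encode proteins of the extracellular matrices that the inner ear builds. The genes examined were *Oc90*, *Gm414*, *Spp1*, *Matn1*, *Sparc*, *Sparcl1*, *Tecta*, *Tectb*, *Otog* and *Otoa*, and their probes were found by the gene symbol that the array annotation gives each probe. Of these 10 genes, 9 had probes, with 11 probes among the 25697 probes and 18120 gene symbols of the table, and *Otog* had no row. Expression was compared between otic vesicles (OV), the epithelial sacs that have closed off from the head ectoderm, and non-otic tissues at E10.5, to ask which matrix genes are already active in the vesicle. Each of the 3 groups had 3 arrays, and each array carried 1 RNA pool of tissue from CD-1 mouse embryos at E10.5, midway through gestation, with no treatment named in the labels. The OV group held pooled otic vesicles. The periotic group held the tissue around them, mesenchyme and hindbrain included, and the embryo-minus-otic group held embryos from which the otic region had been removed. Both non-otic groups are therefore mixtures of cell types, and in bulk tissue a lower number of expressing cells and less RNA per cell cannot be told apart. The OV pools also gave signal for markers of other tissues, as described below.

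Otoconia are the calcium carbonate crystals that lie over the utricle and saccule and give these organs their sensitivity to gravity and acceleration. They form on a protein core in which otoconin-90, the product of *Oc90*, and the collagen-like otolin are main components. The tectorial membrane is the gel over the hair cells of the cochlea, and similar gels cover the vestibular organs. It is built from collagens and from non-collagenous glycoproteins, among them α-tectorin, β-tectorin and otogelin, while otoancorin anchors it to cells that do not themselves sense sound. Both structures are assembled after the vesicle has begun to form the parts of the inner ear.

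An intensity is the brightness of a probe on an array, and the values below are log2 intensities after quantile normalization over the 9 arrays unless they are named as deposited. A detection p-value under 0.01, which ranks a signal against the negative control beads, counted as above background, and between 43.9% and 47.3% of probes passed on an array. Of the 10 otic epithelium markers, 9 had probes, and 10 of their 16 probes were higher in OV in each OV comparison with none lower. The summed normalized intensity of that list, on the linear scale, was 5314 to 5627 on the OV arrays, 1153 to 1302 on the periotic arrays and 1314 to 1367 on the embryo-minus-otic arrays. The hindbrain and neural tube list (10 probes) ran the other way against periotic tissue, with sums of 1335 to 1343 in OV and 6137 to 7418 in periotic tissue. Genes of other tissue lists were also above background on all 3 OV arrays. Of those with probes, they were 5 of 7 mesenchyme genes, 4 of 6 endothelium genes and 5 of 5 erythroid genes. The hindbrain and neural tube list had 3 such genes of 8. An OV intensity therefore cannot be assigned to the vesicle epithelium alone. Replicates were RNA pools from 3 litters, and 3 arrays per group limit the precision of every mean.

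Of the 11 probes, 4 were higher in OV than in the periotic group at an adjusted p (*q*) under 0.05, and 3 were lower. Over all probes, 5.07% were higher and 5.15% lower in that comparison. Against the embryo-minus-otic group 4 of the 11 probes were higher and 2 lower, and of all probes 5.89% were higher and 5.51% lower. The higher probes were those of *Oc90*, *Gm414*, *Spp1* and *Matn1* in both comparisons. Both probes of *Sparc* were lower in both comparisons, and *Sparcl1* was lower against periotic tissue. None of the 11 probes passed between the non-otic groups in the limma fit, and 0 of them had an unadjusted p under 0.05 there, while 2.86% of all probes were higher and 2.95% lower in periotic tissue. All 3 OV arrays lay above all 6 non-otic arrays for 6 of the 11 probes, against 6.86% of all probes, and below all 6 for 2 of the 11, against 5.6% of all probes. The median log2 difference over the 11 probes was 0.23 in both OV comparisons, and over all probes it was 0.00 against both groups.

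**Figure D1:**
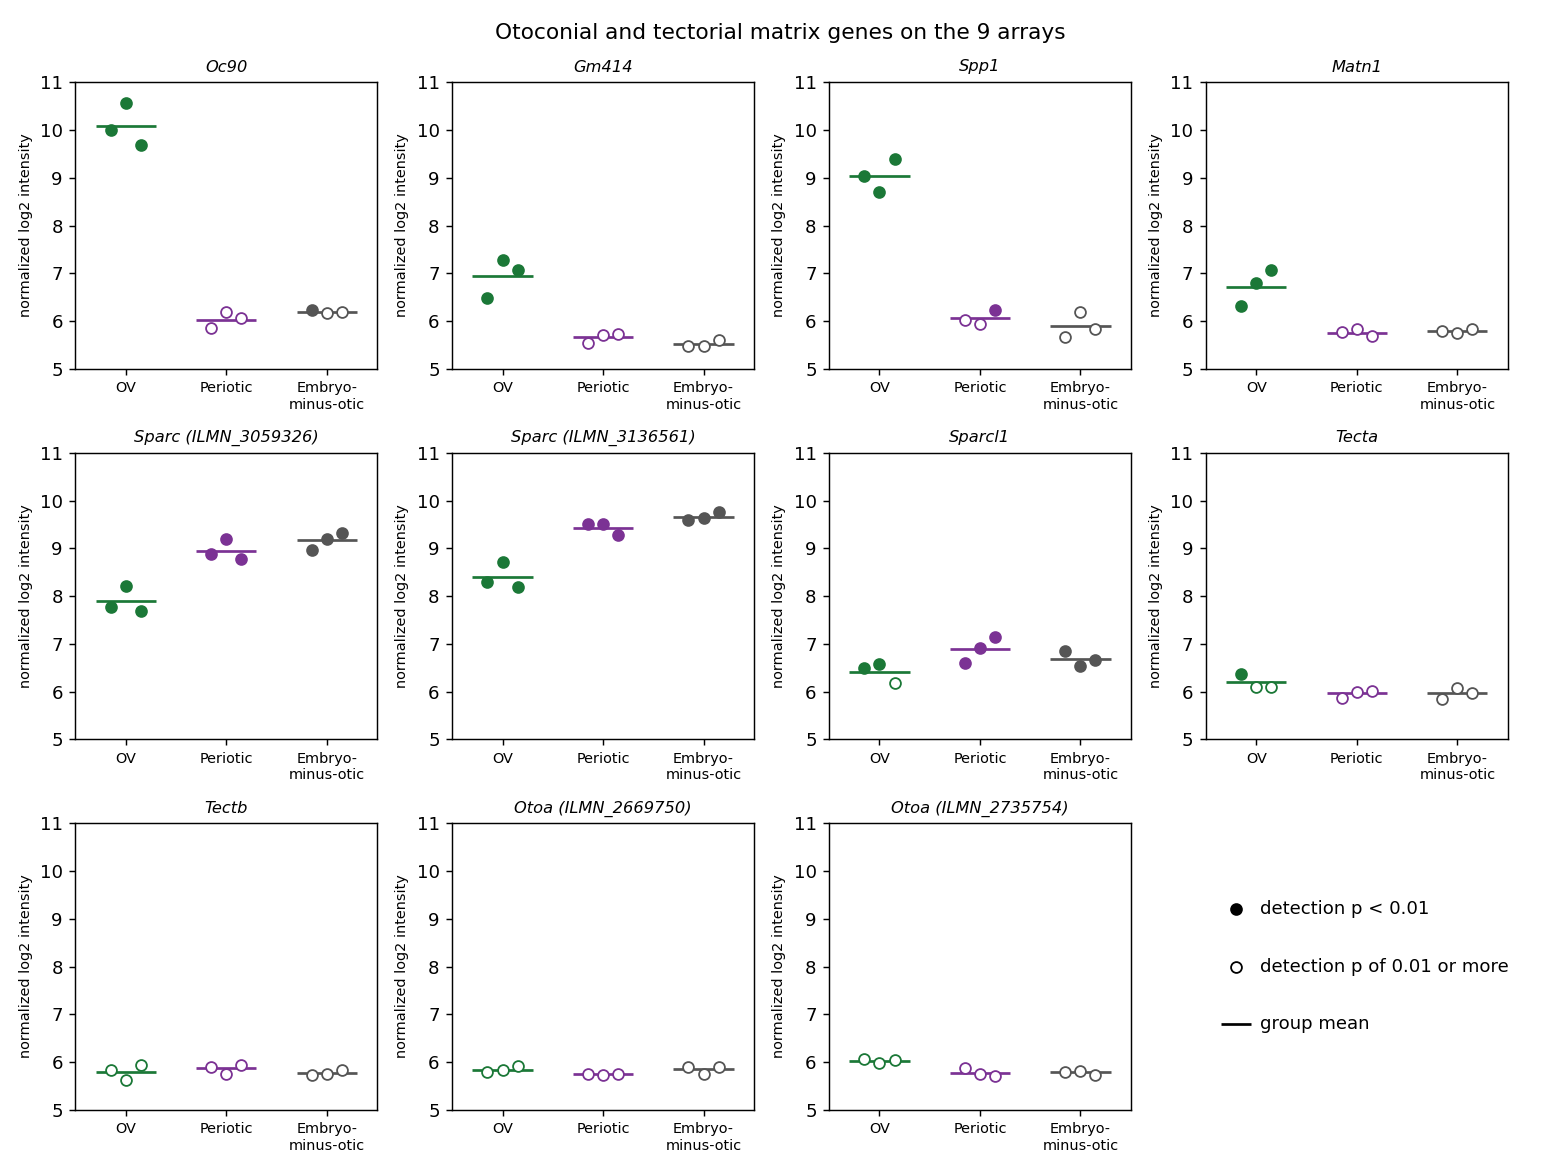
Normalized log2 intensity of each probe on the 3 OV, 3 periotic and 3 embryo-minus-otic arrays, with a line at each group mean and filled points where the detection p-value is under 0.01. The OV points of *Oc90*, *Gm414*, *Spp1* and *Matn1* lie above all non-otic points, those of both *Sparc* probes lie below them, and the *Tectb* and *Otoa* points are all open.

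The sequence ahead of the annotated start is shown for *Gm414*, *Spp1* and *Matn1*, as genes that share a higher intensity in OV, so that their upstream regions can be read beside the values. *Oc90* shares it too but had no window, and of the 2 windows of *Spp1* the one at the gene's annotated start was taken. The windows shown come from the RefSeq annotation of mouse build GRCm38.p6, where *Gm414* carries the current symbol *Otol1*, and each gives 250 bases on the plus strand, written 5′ to 3′, that end just before the gene's start. Capitals mark matches to 4 short words, searched on both strands and chosen after these windows had been read: TATAAA, the word of a TATA box, TGATAA, which GATA factors bind, ACAAAG, which SOX factors bind, and CAGCTG, an E-box that reads the same on both strands. No matches overlapped.
*Otol1*, chr3:70007363-70007612, plus strand: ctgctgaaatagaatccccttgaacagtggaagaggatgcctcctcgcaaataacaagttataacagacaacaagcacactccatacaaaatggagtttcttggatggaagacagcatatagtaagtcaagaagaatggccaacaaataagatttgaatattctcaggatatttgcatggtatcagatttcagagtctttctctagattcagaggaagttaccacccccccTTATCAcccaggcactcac
*Spp1*, chr5:104434861-104435110, plus strand: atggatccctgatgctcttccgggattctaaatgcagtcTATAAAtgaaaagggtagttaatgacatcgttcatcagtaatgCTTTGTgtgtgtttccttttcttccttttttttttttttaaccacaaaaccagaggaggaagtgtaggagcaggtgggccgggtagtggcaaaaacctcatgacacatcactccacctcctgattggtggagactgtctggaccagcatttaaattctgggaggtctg
*Matn1*, chr4:130944135-130944384, plus strand: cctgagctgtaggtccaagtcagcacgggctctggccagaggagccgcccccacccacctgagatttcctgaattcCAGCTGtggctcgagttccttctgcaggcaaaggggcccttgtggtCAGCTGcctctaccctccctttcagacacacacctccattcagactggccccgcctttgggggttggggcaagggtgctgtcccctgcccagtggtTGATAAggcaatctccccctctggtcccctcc

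The *Otol1* window held TGATAA on the minus strand, with its leftmost base 19 bases before the start. In the *Spp1* window TATAAA began 211 bases before the start, and ACAAAG lay on the minus strand with its leftmost base 168 bases before it. The *Matn1* window held CAGCTG at 174 and 128 bases before the start and TGATAA at 32 bases before it. Of all 32851 windows cut to the same length, 12.4% held TATAAA, 7.94% held TGATAA, 16.5% held ACAAAG and 13% held CAGCTG. No word was found in all 3 windows.

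*Oc90* on chromosome 15 encodes otoconin-90, the most abundant protein of otoconia. The deposited intensities of its probe (ILMN_1217077) were 1165, 1469 and 753.6 on the OV arrays, 53.22, 75.77 and 64.03 on the periotic arrays, and 91.95, 79.53 and 63.7 on the embryo-minus-otic arrays. After normalization the log2 values were 10.01, 10.56 and 9.69 for OV, 5.86, 6.18 and 6.06 for periotic tissue, and 6.22, 6.18 and 6.19 for embryo-minus-otic tissue. Every OV array was thus above every non-otic array, and among the non-otic arrays only embryo-minus-otic array 1 was above background. The OV mean of 10.09 ± 0.437 (SD, n = 3) exceeded the periotic mean of 6.03 ± 0.163 by 4.06 (SE 0.16, 95% interval 3.71 to 4.40, limma *q* = 1.05e-10) and the embryo-minus-otic mean of 6.20 ± 0.0255 by 3.89 (95% interval 3.55 to 4.23, limma *q* = 3.62e-10). That is at least 15.0-fold against periotic tissue and 14.8-fold against the embryo-minus-otic group. The latter is given as a fold and not as a bound only because embryo-minus-otic array 1 was above background, so these values are not of the same kind. With the background subtracted by limma's neqc the log2 differences were 5.29 and 4.96. Where no array of the dimmer group was above background, as for *Oc90* in periotic tissue, the fold is such a lower bound. It sets the OV mean against the mean of, on each dim array, the larger of what the probe itself gave and the lowest value of any probe above background there. The difference of periotic minus embryo-minus-otic tissue for *Oc90* was -0.17 (95% interval -0.51 to 0.18, limma *q* = 0.725).

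*Gm414* on chromosome 3 encodes otolin, the collagen-like scaffold protein of otoconia. Its deposited intensities were 93.06, 148.7 and 122.6 on the OV arrays, 43.15, 53.69 and 50.66 on the periotic arrays and 58.76, 44.75 and 42.1 on the embryo-minus-otic arrays. The normalized log2 values were 6.47, 7.28 and 7.08 for OV, 5.55, 5.71 and 5.73 for periotic tissue, and 5.49, 5.48 and 5.59 for embryo-minus-otic tissue. All OV arrays were above background and none of the non-otic arrays were, and the groups did not overlap. The OV mean of 6.94 ± 0.42 was higher than the periotic mean of 5.66 ± 0.0994 by 1.28 (SE 0.152, 95% interval 0.96 to 1.60, limma *q* = 2.19e-05) and than the embryo-minus-otic mean of 5.52 ± 0.0638 by 1.42 (95% interval 1.10 to 1.75, limma *q* = 7.06e-06). The bounds were at least 1.70-fold and at least 1.66-fold. With neqc these differences were 2.08 and 2.15. OV array 1 was the lowest OV array for *Gm414*.

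*Spp1* on chromosome 5 encodes osteopontin, a phosphorylated glycoprotein of bone and other mineralized matrices that also binds integrins and CD44 as a secreted ligand. The deposited intensities were 582, 409 and 607.2 for OV, 59.36, 63.36 and 73.75 for periotic tissue, and 67.95, 80.78 and 49.77 for embryo-minus-otic tissue. Normalized, they were 9.04, 8.71 and 9.39 for OV, 6.02, 5.94 and 6.22 for periotic tissue, and 5.67, 6.20 and 5.83 for embryo-minus-otic tissue. OV array 2, the highest for *Oc90* and *Gm414*, was the lowest OV array for *Spp1*, and periotic array 3 was the only non-otic array above background. The OV mean of 9.05 ± 0.341 exceeded the periotic mean of 6.06 ± 0.146 by 2.99 (SE 0.158, 95% interval 2.65 to 3.32, limma *q* = 2.14e-09), or 7.92-fold. Against the embryo-minus-otic mean of 5.90 ± 0.268 the difference was 3.15 (95% interval 2.81 to 3.48, limma *q* = 2.06e-09), or at least 7.12-fold. With neqc the *Spp1* differences were 4.14 and 4.35.

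*Matn1* on chromosome 4 encodes matrilin-1, an oligomeric protein of cartilage matrix that binds collagen fibrils. Its deposited intensities were 82.92, 105.9 and 121.1 for OV, 49.88, 58.26 and 48.96 for periotic tissue, and 73.55, 54.65 and 50.19 for embryo-minus-otic tissue. The normalized values were 6.31, 6.79 and 7.06 for OV, 5.76, 5.83 and 5.69 for periotic tissue, and 5.79, 5.74 and 5.84 for embryo-minus-otic tissue. All OV arrays were above background and no non-otic array was, although OV array 1 lay close to the lowest log2 value at which any probe passed, which was 6.14 to 6.24 over the arrays. The OV mean of 6.72 ± 0.381 was higher by 0.96 than the periotic mean of 5.76 ± 0.0717 (SE 0.14, 95% interval 0.66 to 1.26, limma *q* = 0.000174) and by 0.93 than the embryo-minus-otic mean of 5.79 ± 0.0495 (95% interval 0.63 to 1.23, limma *q* = 0.000254), giving bounds of at least 1.45-fold and at least 1.42-fold. With neqc the *Matn1* differences were 1.67 and 1.64.

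**Figure D2:**
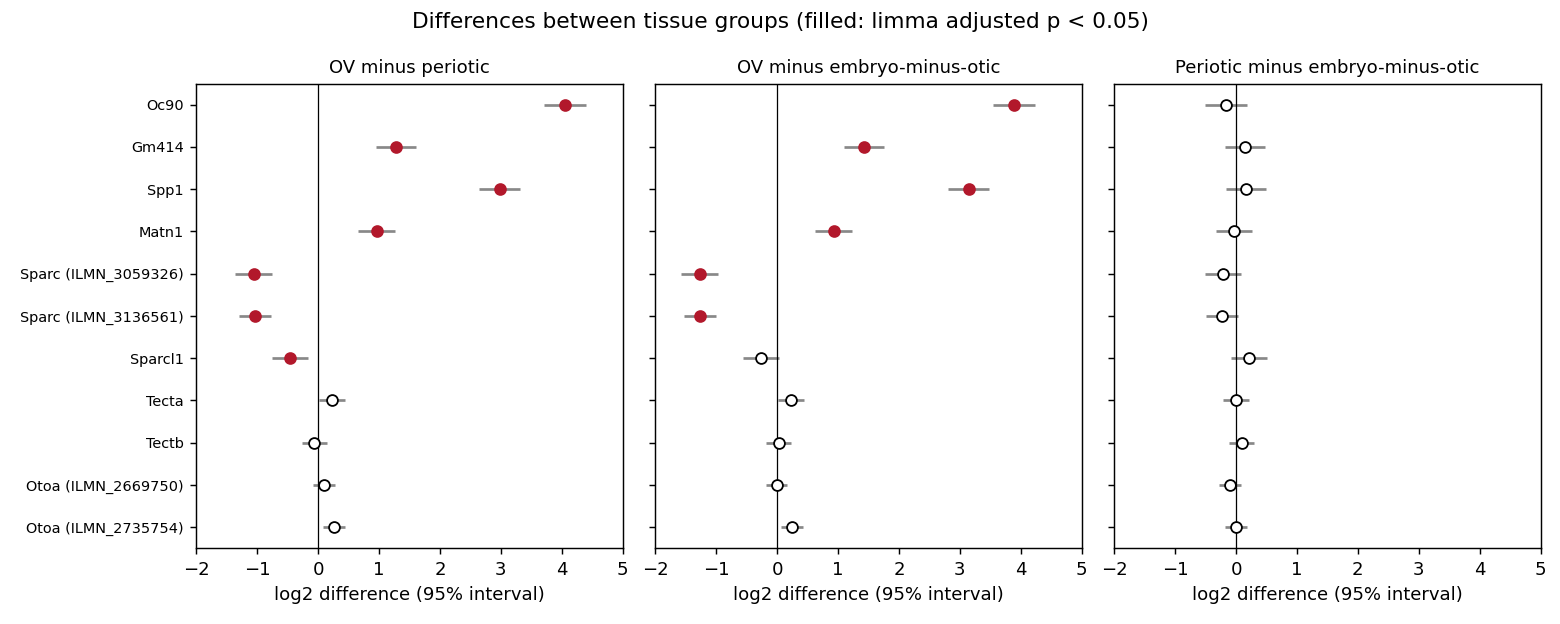
Log2 differences of each probe between the tissue groups (points) with 95% intervals from the limma fit (lines), filled where the adjusted p is under 0.05. The intervals of *Oc90* at 4.06 and 3.89 and of *Spp1* at 2.99 and 3.15 lie farthest to the right in the OV comparisons, and all points are open between the non-otic groups.

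*Sparc* encodes a collagen- and calcium-binding matricellular glycoprotein, also called osteonectin, which many embryonic tissues secrete and which is also present in otoconia. It had 2 probes on chromosome 11. For the first, ILMN_3059326, the normalized log2 values were 7.78, 8.20 and 7.69 for OV, 8.89, 9.19 and 8.77 for periotic tissue, and 8.97, 9.20 and 9.32 for embryo-minus-otic tissue. For the second, ILMN_3136561, they were 8.30, 8.71 and 8.18 for OV, 9.51, 9.52 and 9.27 for periotic tissue, and 9.59, 9.64 and 9.77 for embryo-minus-otic tissue. Both *Sparc* probes were above background on all 9 arrays, and on both every OV array lay below every non-otic array. On the first probe the OV mean of 7.89 ± 0.271 differed from the periotic mean of 8.95 ± 0.219 by -1.06 (SE 0.141, 95% interval -1.36 to -0.76, limma *q* = 6.85e-05), 2.08-fold lower, and from the embryo-minus-otic mean of 9.17 ± 0.179 by -1.27 (limma *q* = 1.03e-05), 2.42-fold lower. On the second probe the differences were -1.04 (SE 0.124, limma *q* = 2.36e-05) and -1.27 (limma *q* = 2.8e-06), or 2.05-fold and 2.41-fold lower. The intensity that *Sparc* kept in OV was thus well above background while being lower than in both non-otic groups. By the drop in OV below the lower non-otic mean, the *Sparc* probes held ranks 110 and 113 of 25697.

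On the mesenchyme, endothelium and erythroid lists no probe passed as higher in OV, and those that passed were lower, as *Sparc* was. Against periotic tissue, 7 of the 10 mesenchyme probes and 5 of the 7 endothelium probes did not pass. Of 10 mesenchyme probes 3 were lower in OV than in periotic tissue and 9 lower than in embryo-minus-otic tissue, with a summed normalized intensity of 1400 to 1561 in OV, 1657 to 1929 in periotic tissue and 3012 to 3724 in embryo-minus-otic tissue. Of 7 endothelium probes 2 and 3 were lower, with sums of 829.1 to 996.1, 1107 to 1331 and 1272 to 1499. All 5 erythroid probes were lower in OV in both comparisons, with sums of 6185 to 16370, 28450 to 35100 and 41210 to 46460. Of the probes on these lists, 1 mesenchyme probe was never above background, and the listed mesenchyme gene *Prrx2* had no probe. The part of these tissues in the *Sparc* differences was not tested. Between the non-otic groups the *Sparc* differences of -0.22 and -0.23 did not pass (limma *q* = 0.528 and 0.401). Their intervals from the limma fit ran from -0.52 to 0.08 and from -0.50 to 0.03, so a lower intensity in periotic tissue was not excluded. In the same comparison 8 of the 10 mesenchyme probes were lower in periotic tissue. Whether *Sparc* and the mesenchyme probes differed there was not tested.

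*Sparcl1* on chromosome 5 encodes hevin, a relative of *Sparc* with an anti-adhesive role in matrix and in blood vessel walls. Its normalized log2 values were 6.49, 6.59 and 6.17 for OV, 6.60, 6.91 and 7.14 for periotic tissue, and 6.84, 6.52 and 6.67 for embryo-minus-otic tissue. OV array 3 was not above background (detection p-value of 0.0201), while all other arrays were, and the OV and embryo-minus-otic arrays overlapped. The OV mean of 6.42 ± 0.215 was below the periotic mean of 6.88 ± 0.273 by a difference of -0.47 (SE 0.138, 95% interval -0.76 to -0.17, limma *q* = 0.0436), 1.38-fold lower. Against the embryo-minus-otic mean of 6.68 ± 0.16 the difference of -0.26 did not pass (95% interval -0.56 to 0.03, limma *q* = 0.311). The call against periotic tissue was lost when certain single arrays were left out. The *Sparcl1* difference was -0.50 without OV array 1, -0.34 (limma *q* = 0.223) without OV array 3, -0.45 without periotic array 2, -0.33 (limma *q* = 0.202) without periotic array 3 and -0.47 without embryo-minus-otic array 3, and none of these passed. It was also lost under other ways of normalizing the arrays, with neqc among them (-0.78). Of the 7 endothelium probes described beside *Sparc*, 2 were lower in OV than in periotic tissue and 5 did not pass. Of the 10 hindbrain and neural tube probes, 9 were lower in OV than in periotic tissue and 6 lower than in embryo-minus-otic tissue. The part of endothelium or of neural tissue in the *Sparcl1* difference was not tested.

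Among the 10 genes examined, the tectorial membrane genes *Tecta*, *Tectb* and *Otoa* were near background. *Tecta* on chromosome 9, which encodes α-tectorin, had normalized log2 values of 6.38, 6.10 and 6.10 for OV, 5.87, 5.99 and 6.02 for periotic tissue, and 5.84, 6.08 and 5.97 for embryo-minus-otic tissue. Only OV array 1 was above background, yet all OV arrays were above all 6 non-otic arrays, the smallest gap being that to embryo-minus-otic array 2. The OV mean of 6.19 ± 0.159 exceeded both non-otic means of 5.96 by 0.23, with 95% intervals of 0.02 to 0.45 in both comparisons, and neither passed (limma *q* = 0.207 and 0.191). With neqc the *Tecta* differences were 0.46 and 0.45 and did not pass either.

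*Tectb*, which encodes β-tectorin, was not above background on any array. Its log2 values of 5.84, 5.63 and 5.93 for OV, 5.89, 5.76 and 5.95 for periotic tissue, and 5.73, 5.76 and 5.83 for embryo-minus-otic tissue overlapped. The *Tectb* differences were -0.07 against periotic tissue (95% interval -0.27 to 0.14, limma *q* = 0.827) and 0.03 against the embryo-minus-otic group (95% interval -0.18 to 0.23, limma *q* = 0.929).

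*Otoa* on chromosome 7, which encodes otoancorin, had 2 probes, and neither was above background on any array. On the first, ILMN_2669750, the groups overlapped, with means of 5.84 ± 0.0639 in OV, 5.75 ± 0.0123 in periotic tissue and 5.85 ± 0.0835 in embryo-minus-otic tissue (limma *q* = 0.668 and 0.971 for the OV comparisons). On the second, ILMN_2735754, the log2 values were 6.07, 5.99 and 6.04 for OV, 5.88, 5.75 and 5.70 for periotic tissue, and 5.80, 5.81 and 5.74 for embryo-minus-otic tissue. The second probe separated OV from all 6 non-otic arrays, with differences of 0.25 against both groups, and did not pass (limma *q* = 0.0728 and 0.0722). With neqc it did pass, with differences of 0.36 and 0.37 (limma *q* = 0.0185 and 0.0167). Its detection p-values on the OV arrays were 0.0426, 0.0789 and 0.0614. The *Otoa* probes therefore disagreed in the order of the groups, and no fold is given for either.

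**Figure D3:**
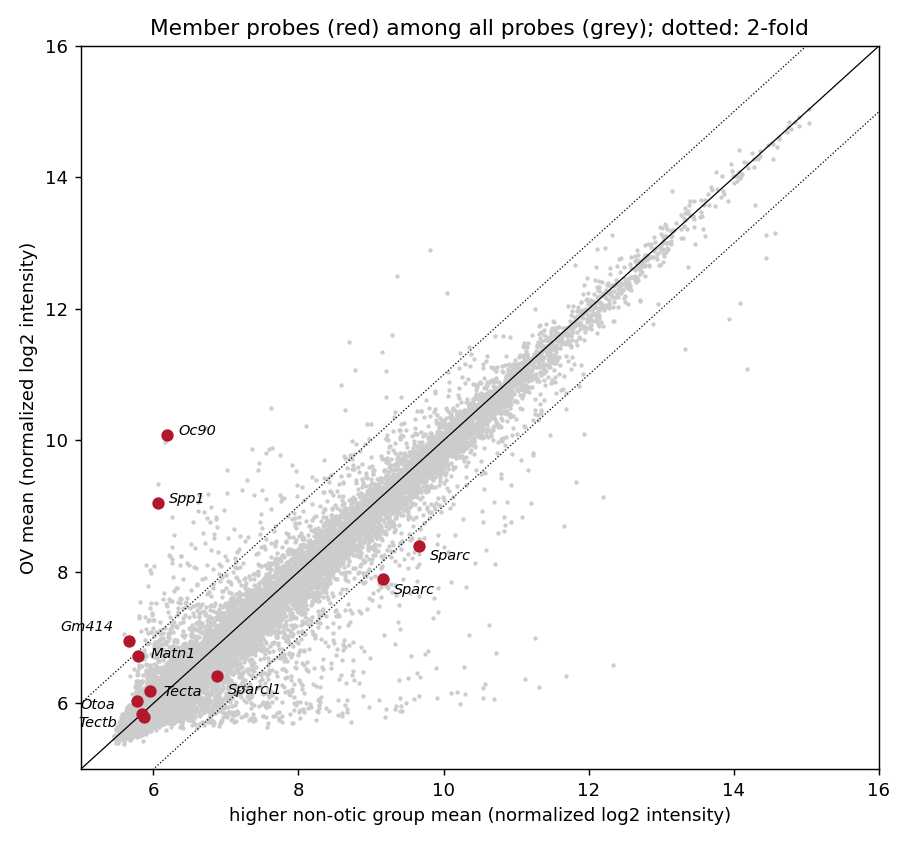
Mean normalized log2 intensity in OV (vertical axis) against the higher of the non-otic group means (horizontal axis) for all 25697 probes in grey and the 11 matrix gene probes in red, with the line of equality and dotted lines at a 2-fold difference. *Oc90* at 10.09 and *Spp1* at 9.05 in OV stand at the upper left edge, both *Sparc* probes lie below the lower dotted line, and the *Tecta*, *Tectb* and *Otoa* probes lie near the line of equality at the dim end.

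Of the 10 other genes on a list for otoconia formation, which holds ion transporters, carbonic anhydrase and the NADPH oxidase that otoconia need in order to form, 1 probe of 20 was higher in OV in each comparison and none was lower, and 13 of the 20 were never above background. The higher probe, ILMN_2683856, was for *Noxo1*, the organizer subunit of that oxidase. Its mean of 6.93 ± 0.291 in OV compared with 6.12 ± 0.145 in periotic tissue and 6.17 ± 0.00797 in embryo-minus-otic tissue (differences of 0.81 and 0.77, limma *q* = 0.000293 and 0.000493). With neqc they were 1.43 and 1.34. The other *Noxo1* probe, with means of 6.27, 6.02 and 5.99, did not pass (limma *q* = 0.418 and 0.285). The median difference over the list was 0.04 against periotic tissue and 0.09 against the embryo-minus-otic group.

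Of the 10 other genes on a list for the tectorial membrane, 9 had probes, 14 in all. Of these probes, 3 were higher and 1 lower in OV in each comparison, while 9 were never above background. The higher probes were for the fibrillar collagen gene *Col2a1* and for *Col9a2*, a collagen on the fibril surface. *Col9a2* had means of 9.15 ± 0.157 in OV, 6.42 ± 0.219 in periotic tissue and 6.44 ± 0.0569 in embryo-minus-otic tissue, 6.64-fold and 6.57-fold higher (limma *q* = 1.62e-10 and 3.86e-10), and with neqc its log2 differences were 3.55 and 3.50. The *Col2a1* probes gave 4.66-fold and 4.88-fold against periotic tissue and 4.56-fold and 4.79-fold against the embryo-minus-otic group. *Emilin2*, an elastin-associated glycoprotein, was lower, at 7.37 in OV, 8.74 in periotic tissue and 8.16 in embryo-minus-otic tissue (differences of -1.37 and -0.79, limma *q* = 3.23e-07 and 0.000116). Whether its product belongs to the tectorial membrane was not examined, so this lower probe describes the list and not the membrane. *Strc* and *Ceacam16*, whose products are found where the mature membrane meets hair cells or in its striated sheet, were never above background. Because *Col2a1* and *Matn1* are also cartilage genes, a cartilage list was read beside them: of its 4 probes *Sox9*, which otic epithelium also expresses, was higher in OV, *Hapln1* was lower (7.01 in OV, 7.58 in periotic tissue and 7.70 in embryo-minus-otic tissue), and *Comp* and *Col10a1* were never above background. The summed normalized intensity of the cartilage list was 962.3 to 1424 in OV, 494.2 to 555.9 in periotic tissue and 463.5 to 572.4 in embryo-minus-otic tissue. This sum includes *Sox9*, the only cartilage probe that passed as higher in OV, with means of 9.78, 7.75 and 7.70 in the same order. The listed cartilage gene *Acan* had no probe. The part of cartilage in the *Matn1* difference was not tested.

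Relatives of the matrix genes were read from lists of their families. Of 5 probes for the other SIBLING genes, the family of acidic matrix phosphoproteins to which osteopontin belongs, none passed in any comparison of the limma fit and 4 were never above background. Of 5 probes for the other matrilins, none passed and 4 were never above background. At an unadjusted p under 0.05, 1 SIBLING probe, for *Ibsp* (-0.24 in OV against the embryo-minus-otic group), and 1 matrilin probe, for *Matn4* between the non-otic groups, would have been counted. Among 5 probes for other genes of the SPARC family, *Fstl1* was lower in OV in both comparisons, at 8.80 against 9.52 and 9.46 (differences of -0.71 and -0.66, limma *q* = 0.00157 and 0.00299), and *Spock2* was higher against the embryo-minus-otic group (difference 0.33, limma *q* = 0.0269) and not against periotic tissue (0.21, limma *q* = 0.224). The *Spock2* call was lost without OV array 2 (0.27), OV array 3 (0.31), embryo-minus-otic array 1 (0.31) or embryo-minus-otic array 2 (0.33), and with median normalization those of *Fstl1* (-0.47) and *Itgb5* (-0.45) against the embryo-minus-otic group were lost. Of 13 probes for the osteopontin receptors CD44 and its integrin subunits, 7 were never above background. *Itga9* was higher in OV than in periotic tissue (difference 0.69, limma *q* = 0.000262) and not than in embryo-minus-otic tissue (0.14, limma *q* = 0.512). *Itgb5* was lower in OV than in embryo-minus-otic tissue (-0.62, limma *q* = 0.00211) and not than in periotic tissue (0.11, limma *q* = 0.738). Both were also lower in periotic than in embryo-minus-otic tissue (-0.54 and -0.73, limma *q* = 0.00421 and 0.000994). Osteopontin is also made by macrophages, and of 11 macrophage probes none passed in any limma comparison (1 had an unadjusted p under 0.05, *Csf1r* against periotic tissue, at -0.19), 7 were never above background and the summed normalized intensity was 646.3 to 655.1 in OV, 669.7 to 688.6 in periotic tissue and 665.3 to 683.9 in embryo-minus-otic tissue. The part of macrophages in the *Spp1* difference was not tested.

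**Figure D4:**
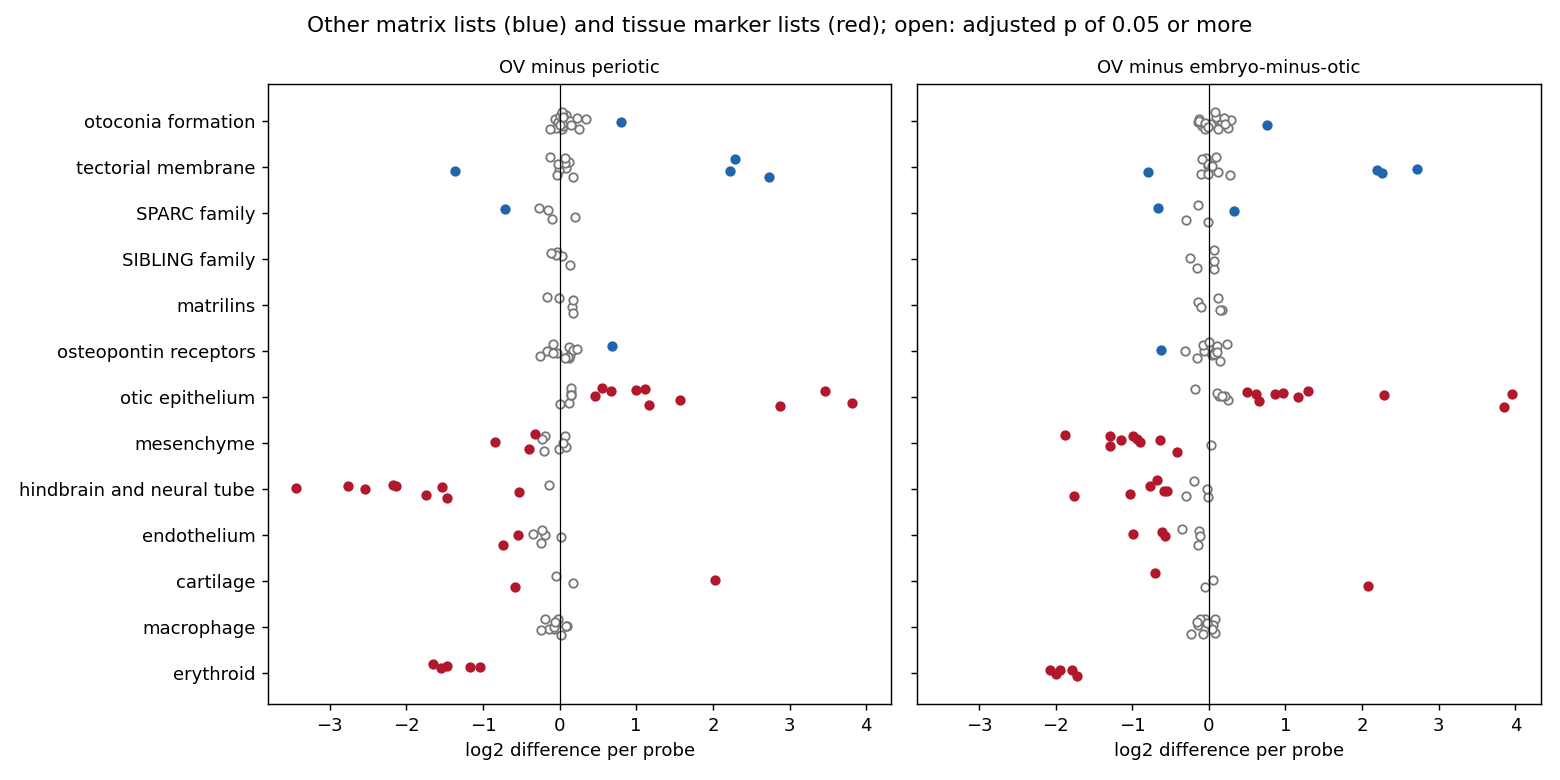
Log2 difference of each probe (points) between OV and periotic tissue and between OV and embryo-minus-otic tissue, for 6 lists of related matrix genes (blue) and 7 lists of tissue markers (red), open where the adjusted p is 0.05 or more. The *Col2a1* and *Col9a2* probes stand to the right in the tectorial membrane list, all filled otic epithelium points lie to the right of 0, and all erythroid probes lie to the left.

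The probes whose pattern over the 9 arrays was most like each higher matrix gene were found among 10810 probes above background on all OV arrays, by Pearson's r over the 9 normalized log2 values. The 9 arrays share the group structure, so these r are descriptions. For *Oc90* they were *Marveld3* (0.9959), *E130201N16Rik* (0.9949) and *Ap1m2* (0.993), for *Spp1* they were *Enpp2* (0.9948), *Fgf9* (0.9945) and *Slc26a9* (0.9939), for *Gm414* they were *Plekha4* (0.9847), *Kremen* (0.983) and *Ckmt1* (0.9827), and for *Matn1* they were *Aldh5a1* (0.9887), *Padi2* (0.9865) and *Tomm34* (0.983). *Marveld3*, a tight junction protein, had means of 8.11 in OV, 5.79 in periotic tissue and 5.91 in embryo-minus-otic tissue. *Fgf9*, a secreted growth factor, had means of 7.14, 6.16 and 6.08. No probe was among the named probes of more than 1 matrix gene.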

How the data were processed

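The 9 RNA pools were hybridized to Illumina MouseRef-8 v2.0 arrays of 1 colour, 3 each for OV, periotic and embryo-minus-otic tissue, and groups were taken from the labels. The authors deposited the average GenomeStudio signal of each probe as an intensity without normalization between arrays, and a detection p-value set against the array's negative controls. Quantile normalization followed a log2 transform. In R 4.3.3, limma 3.58.1 fitted a model of the 3 groups to all 25697 probes, with p adjusted over all probes by Benjamini-Hochberg, and this test was checked on simulated data. Probes of a gene were kept separate. All probes of the 10 genes are given. At most 3 genes are named from each other list of matrix genes, those furthest from the nearer non-otic group among probes that passed, and further genes named singly were chosen after their values were seen. The 10 genes and all lists were chosen with earlier results of these data known. No background was subtracted here, so folds of dim probes are understated. RefSeq promoter windows (GRCm38.p6) were found for 8 of the 10 genes by symbol or synonym. The labels do not say whether arrays with the same replicate number share a litter. Deviations of such arrays from their group means correlated weakly but positively in every pair (r 0.008 to 0.182). The main fit did not use the numbers as pairs, so any pairing by litter is left out of it. As alternatives, neqc (offset 16), median or no normalization, a filter on dim probes, fits of each pair of groups, a block by replicate number, a trend in the prior, array weights, a detection threshold of 0.05 and leaving out each array were tried.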

Additional observations from a re-analysis of the deposited data

How the results depend on the processing

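The called differences of *Oc90*, *Gm414*, *Spp1*, *Matn1* and both *Sparc* probes kept their direction and stayed past the threshold under all 17 alternative fits. The fits with neqc gave the largest values for *Oc90* (up to 5.29) and *Spp1* (up to 4.35), and the smallest over all fits were 3.64 and 2.82. With the replicate number as a block, the counts of matrix gene probes higher and lower were unchanged (4 and 3 against periotic tissue, 4 and 2 against the embryo-minus-otic group), while calls over all probes went from 2625 to 2790, from 2930 to 3221 and from 1493 to 1669. Of 9 arrays, 7 correlated best with an array of their own number. The *Sparcl1* call against periotic tissue was also lost with neqc (-0.78, limma *q* = 0.101), median normalization (-0.52, *q* = 0.115), no normalization (-0.52, *q* = 0.101) and array weights (-0.39, *q* = 0.0706), and over single arrays left out its difference ranged from -0.61 to -0.33. The second *Otoa* probe passed with neqc (0.36 and 0.37, limma *q* = 0.0185 and 0.0167). With median normalization *Fstl1* had *q* = 0.17 and *Itgb5* *q* = 0.184 against the embryo-minus-otic group, and *Spock2* lost its call in 7 of 17 fits. Differences that turned in direction were all uncalled. In OV against periotic tissue, *Tectb* ranged from -0.13 to 0.02 with single arrays left out. In OV against the embryo-minus-otic group, the first *Otoa* probe was 0.011 with median normalization and -0.057 to 0.019 with arrays left out, and *Tectb* was -0.096 without normalization, -0.006 with array weights and -0.038 to 0.111 with arrays left out. Between the non-otic groups, median normalization gave 0.008 and 0.035 for the *Sparc* probes, *Tectb* was -0.045 without normalization, the second *Otoa* probe was 0.004 with neqc, 0.014 with array weights and -0.057 to 0.032 with arrays left out, *Tecta* ranged from -0.066 to 0.056 and *Matn1* from -0.067 to 0.005. The cause was not tested. Of all probes, those higher and lower in OV numbered 814 and 870 against periotic tissue and 1472 and 670 against the embryo-minus-otic group with median normalization, and 620 and 761, and 588 and 795, without normalization. Between the non-otic groups 812 and 315, and 325 and 371, passed under the same settings. At a detection threshold of 0.05, 8 in place of 6 of the 11 probes were above background on all OV arrays.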
